A study of Mus musculus with 6 samples.

Results

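The dual-specificity phosphatases described here are 9 genes of the Dusp family, chosen by symbol from the 22899 genes in each deposited table: Dusp1, Dusp2, Dusp4, Dusp5, Dusp6, Dusp7, Dusp10, Dusp16 and Dusp22. All 9 were found, and all 9 had at least 1 FPKM (a gene's sequenced fragments relative to the length of its transcript and to the size of the library) in at least 3 of the 6 libraries, the condition for entering the comparison. The set was put together with the obese and lean values of these tables known. The differences of the 9 genes between the groups are therefore given as a description, with their spread, and no test result is used as support for them.

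RNA came from CD4+ helper T cells sorted by flow cytometry from the spleens of C57BL/6 mice. The 3 lean libraries were from mice on a normal diet, and the 3 obese libraries from mice on a diet with 60 kcal% fat. For both groups, feeding started mostly at 6 to 8 weeks of age and was kept for up to 4 months. The labels give neither sex nor sorting gates, and do not say whether a library holds 1 mouse or several, so an SD measures the spread between libraries only. The SE on the log2 scale starts from that spread and also draws on the variance of the other tested genes. The summed FPKM was 595106 to 656303 per library, and the number of reads behind it is unknown.

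MAP kinases (ERK, JNK and p38) carry signals from the T cell receptor, cytokine receptors and stress to the nucleus, and are active when both a threonine and a tyrosine of their activation loop are phosphorylated. Dual-specificity phosphatases that act on MAP kinases remove both phosphates and so switch the kinases off. Several are themselves induced by the kinase they act on, which makes them feedback brakes, and family members differ in where they sit in the cell and which kinase they prefer. In T cells they are known for limiting ERK signalling after activation and for shaping cytokine production.

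The labelled cell type was checked on markers. The 8 T cell markers (Cd3d, Cd3e, Cd3g, Cd247, Cd4, Cd5, Cd28 and Trat1) were present in every library and summed to 2364 to 2579 FPKM in the lean group and 2025 to 2460 in the obese group. Transcripts of other cells were also present. The 15 macrophage and monocyte markers summed to 658.1 to 759.3 FPKM in the lean group and 1550 to 1725 in the obese group, and each of the 15 was higher in every obese library. The 10 erythroid markers summed to 13.2 to 15.6 FPKM in the lean group and 100.02 to 529.1 in the obese group, again 10 of 10 higher in every obese library. The 13 neutrophil markers summed to 616.7 to 898.3 FPKM in the lean group and 174.2 to 479.2 in the obese group, with 7 of 13 lower in every obese library. The 7 plasma cell markers summed to 481.3 to 565.8 FPKM in the lean group and 771.3 to 1399 in the obese group, with 3 of 7 higher in every obese library. Of 10 NK cell markers, 5 were lower and 2 higher in every obese library, and their sums overlapped (511.6 to 587.5 FPKM in lean and 473.6 to 562.9 in obese libraries). B cell markers overlapped between the groups, with sums of 390.5 to 842.6 FPKM (lean) and 560.1 to 1064 FPKM (obese). The 2 CD8 T cell markers also overlapped, with sums of 55.1 to 74.7 FPKM (lean) and 48.6 to 79.6 FPKM (obese). Dendritic cell sums were 30.9 to 34.8 FPKM (lean) and 30.3 to 43.4 FPKM (obese), with 2 of 8 markers higher in every obese library. Platelet sums were 32.8 to 55.3 FPKM (lean) and 49.7 to 71.1 FPKM (obese), with 2 of 6 markers higher in every obese library. No marker of these lists was at 0 in any library. Phosphatase transcripts are made by these cells as well as by T cells, and the part of such cells in the values below was not tested. In bulk RNA, fewer cells of a type and less RNA per cell cannot be told apart.

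Levels within the family spanned a wide range. FPKM is scaled by transcript length, so levels can be compared between genes. Dusp2 had the highest median over the 6 libraries (122.1 FPKM), followed by Dusp1 (58.3), Dusp7 (32.9), Dusp5 (27.9), Dusp10 (21.3), Dusp6 (18.9), Dusp22 (4.06), Dusp4 (2.45) and Dusp16 (2.34). Dusp1 stood above Dusp7, Dusp6 above Dusp22, and Dusp22 above Dusp4 with no overlap of their ranges. The other neighbours overlapped in range. Dusp4 and Dusp16 did not differ beyond their spread, since Dusp4 was the higher in 3 of the 6 libraries. Within each library Dusp2 was above Dusp1 in 6 of 6. Together, Dusp1 and Dusp2 made up 57.2% to 60.3% of the summed FPKM of the 9 genes in lean libraries and 64.8% to 68.0% in obese ones. The sum itself was 256.5 to 285.8 FPKM over the lean group and 313.8 to 328.5 over the obese group.

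**Figure D1:**
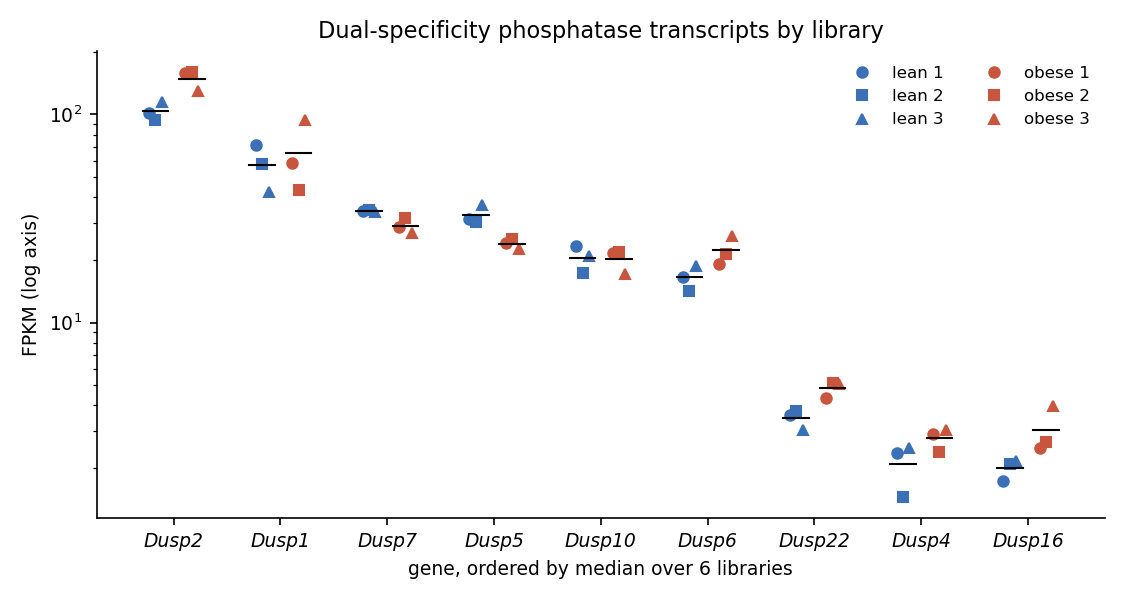
FPKM on a log axis for the 9 genes, ordered by their median over 6 libraries; each point is a library (blue lean, red obese, shape for the replicate number) and black lines are group means of 3 libraries. Dusp2 stands highest, its obese libraries lie above its lean ones, and those of Dusp5 lie below.

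Obese libraries held more Dusp2 and less Dusp5 than lean libraries, and family members of the same class went in different directions. Of the 9 genes, 4 were higher in every obese library than in any lean library (Dusp2, Dusp6, Dusp16 and Dusp22), where 25.4% of all 10788 tested genes were. Another 2 were lower in every obese library (Dusp5 and Dusp7), where 6.15% of all tested genes were. Thus 6 of the 9 had groups that did not overlap, beside 31.5% of all tested genes. Dusp1, Dusp4 and Dusp10 overlapped. The median difference of the 9 genes, obese minus lean in log2(FPKM + 1), was 0.30, and that of all tested genes was 0.10. In the fit of all tested genes (limma, Benjamini-Hochberg adjusted p under 0.05), 5.77% were called as higher and 0.519% as lower, or 6.28% in either direction, and Dusp2 and Dusp5 were among them. The 9 genes were chosen on this contrast, so nothing is read from their calls or from these shares.

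**Figure D2:**
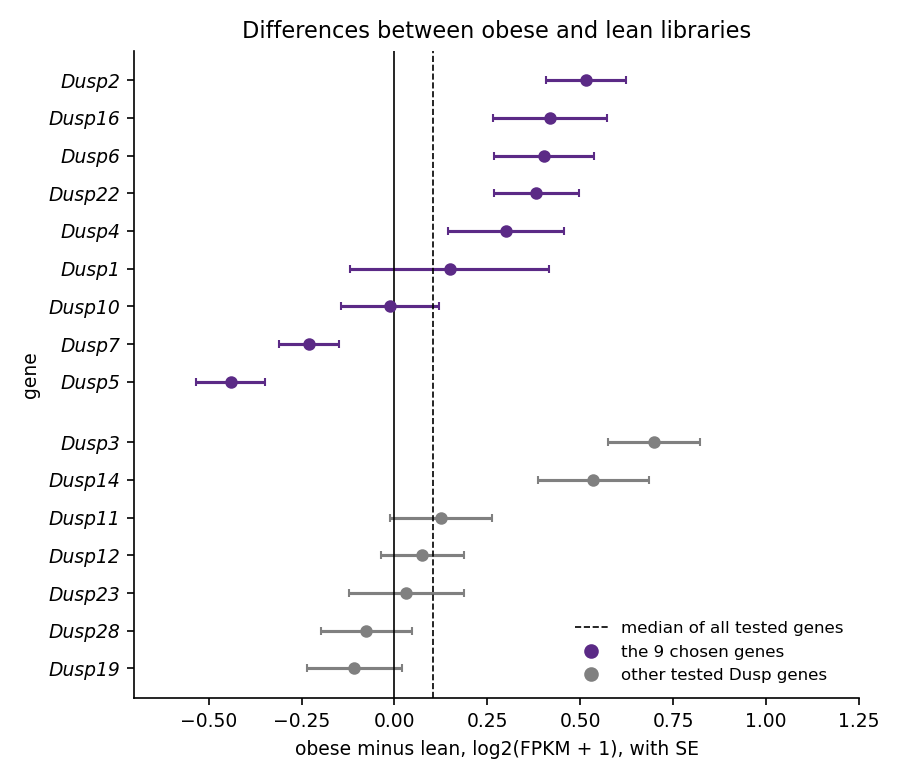
Difference of obese from lean libraries, in log2(FPKM + 1), with the SE of limma, for the 9 genes (purple) and the 7 other Dusp genes that were tested (grey); the solid line is 0 and the dashed line the median of all tested genes, 0.10. The 9 genes run from −0.44 for Dusp5 to 0.52 for Dusp2.

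The nuclear, inducible phosphatases are Dusp1, Dusp2, Dusp4 and Dusp5. Dusp2 (gene 13537, chromosome 2, 127336159 to 127338377, GRCm38), also called PAC-1 for phosphatase of activated cells, is a nuclear enzyme of lymphocytes that is induced when T cells are activated. It stood at 101.2, 94.4 and 115.2 FPKM in lean 1, 2 and 3 and at 157.4, 160.0 and 129.1 FPKM in obese 1, 2 and 3. The groups did not overlap, and obese 3 was the closest to the lean libraries. The lean mean was 103.6 ± 10.6 FPKM and the obese mean 148.8 ± 17.1 FPKM (n = 3 each, error as SD), a difference of 43.6% of the lean mean and of 0.52 ± 0.11 (SE) on the log2 scale.

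Dusp5 (gene 240672, chromosome 19, 53529145 to 53541809, GRCm38) is a nuclear phosphatase that acts on ERK and also holds it in the nucleus. It stood at 31.6, 30.5 and 36.7 FPKM in lean 1, 2 and 3 and at 24.1, 25.2 and 22.5 FPKM in obese 1, 2 and 3. Every obese library lay below every lean library. The lean mean was 32.9 ± 3.29 FPKM and the obese mean 23.9 ± 1.35 FPKM (n = 3 each, error as SD). The log2 difference was −0.44 ± 0.09 (SE).

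A ratio of genes within a library does not change when the whole library is multiplied by a factor, although quantile normalization, which is not such a scaling, can change it. The ratio of Dusp2 to Dusp5, chosen after their values were seen, was 3.20, 3.10 and 3.14 in the lean libraries and 6.54, 6.34 and 5.73 in the obese ones. The lean libraries lay close together, and the lowest obese ratio stood well above the highest lean one. With Dusp2 higher and Dusp5 lower in every obese library, the ratio could not overlap between the groups. The mean ratio was 3.15 ± 0.05 for lean and 6.21 ± 0.42 for obese (n = 3 each, error as SD).

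Dusp1 (gene 19252, chromosome 17, 26505591 to 26508472, GRCm38), or MKP-1, is an immediate early gene whose product acts on p38, JNK and ERK. Its FPKM was 71.1, 58.1 and 42.6 in lean 1, 2 and 3 and 58.5, 43.5 and 94.4 in obese 1, 2 and 3. The groups overlapped, and obese 3 held the highest value. Dusp1 varied most among the 9 genes in the obese group, with an SD of 39.96% of the mean, against 5.66% for Dusp5. The log2 difference was 0.15 ± 0.27 (SE), smaller than its error. Without obese 3 it was −0.15 and without lean 3 it was −0.05, so its sign depended on single libraries.

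The library order of Dusp1 was close to that of Fos, Fosb and Jun, the AP-1 subunits made within minutes of stimulation. Fos stood at 91.9, 70.9 and 45.1 FPKM in lean 1, 2 and 3 and at 64.2, 47.1 and 207.8 FPKM in obese 1, 2 and 3. For Dusp1, Fos, Fosb and Jun alike, obese 3 was the highest and lean 1 the second highest of the 6 libraries, and lean 3 and obese 2 were the lowest pair. Other genes of the immediate early list had another order. Ppp1r15a was highest in obese 3 and second highest in obese 1, and the AP-1 subunits Junb and Jund were highest in lean 1 and lean 2. These genes were set beside Dusp1 after their values were seen.

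**Figure D3:**
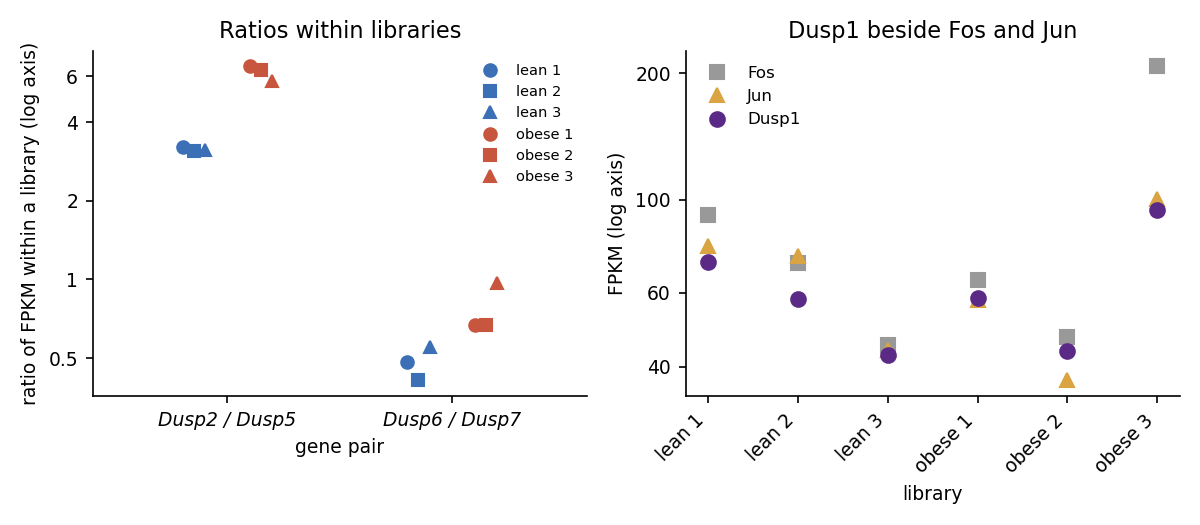
Left, the ratios of Dusp2 to Dusp5 and of Dusp6 to Dusp7 within each library on a log axis, with blue points for lean and red for obese libraries; right, FPKM of Dusp1, Fos and Jun in each library on a log axis. Both ratios are higher in every obese library than in any lean one, which follows from the directions of the genes in them. The 3 genes on the right are all highest in obese 3.

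Dusp4 (gene 319520, chromosome 8, 34807610 to 34819894, GRCm38), or MKP-2, is another inducible nuclear phosphatase and was one of the scarcest members. It stood at 2.36, 1.46 and 2.49 FPKM in lean 1, 2 and 3 and at 2.92, 2.40 and 3.04 FPKM in obese 1, 2 and 3. Obese 2 lay below lean 3, so the groups overlapped. Obese and lean libraries differed by 0.30 ± 0.16 (SE) on the log2 scale, and by 0.14 without lean 2.

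The RefSeq promoter table of assembly GRCm38.p6 held 8 of the 9 genes, and the entry for Dusp4 was missing. The 250 bases before the start are shown for Dusp1, Dusp2 and Dusp5, the 3 genes whose values are followed most closely above. All are written 5′ to 3′ on the strand of the gene. Capitals mark the CRE (TGACGTCA, bound by CREB and ATF factors), its shorter core TGACG, the EGR motif GCGNGGGCG and the CArG box (bound by the serum response factor). The Dusp1 stretch is chr17:26508473-26508722 on the minus strand, that of Dusp2 chr2:127335909-127336158 on the plus strand, and that of Dusp5 chr19:53528895-53529144 on the plus strand.
Dusp1: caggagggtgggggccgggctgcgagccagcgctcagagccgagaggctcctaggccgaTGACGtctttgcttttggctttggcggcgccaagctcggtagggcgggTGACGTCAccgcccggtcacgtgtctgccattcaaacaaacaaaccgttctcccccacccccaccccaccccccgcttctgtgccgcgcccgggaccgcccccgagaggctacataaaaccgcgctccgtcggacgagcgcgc
Dusp2: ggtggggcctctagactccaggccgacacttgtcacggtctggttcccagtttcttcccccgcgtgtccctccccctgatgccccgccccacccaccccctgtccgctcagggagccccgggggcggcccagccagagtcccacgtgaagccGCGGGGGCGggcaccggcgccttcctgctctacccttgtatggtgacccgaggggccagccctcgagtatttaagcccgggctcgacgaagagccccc
Dusp5: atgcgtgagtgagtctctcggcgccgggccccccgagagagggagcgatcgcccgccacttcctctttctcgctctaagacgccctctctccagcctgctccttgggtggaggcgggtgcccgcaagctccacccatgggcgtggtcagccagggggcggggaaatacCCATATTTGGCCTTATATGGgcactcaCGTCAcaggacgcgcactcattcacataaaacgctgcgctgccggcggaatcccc

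The promoters of these genes carried different motifs. The start that the table uses for Dusp16 and Dusp7 lies inside the span of the gene, so the Dusp16 stretch is within the gene and that of Dusp7 runs into it. Motifs were searched on both strands in 32536 distinct promoter stretches of the same length. The full CRE was in the promoter of Dusp1, 136 to 143 bases before the start, and in none of the other 7; 1.56% of all promoters held it. The core TGACG, which the full CRE contains, was in the promoters of Dusp1, Dusp5 and Dusp16 and in 17.9% of all. Dusp5 held a pair of adjacent CArG boxes, CCATATTTGG and CCTTATATGG, 63 to 82 bases before the start, and was the only one of the 8 with a match, against 1.48% of all promoters. The EGR motif was in the promoters of Dusp2, Dusp16 and Dusp22 (4.74% of all), and the GC box GGGCGG, which overlaps it in Dusp2, was in 6 of the 8 (33.0% of all). The AP-1 motif TGANTCA (6.73% of all), the GAS motif TTCNNNGAA (7.04%) and the TATA motif TATAAA (12.3%) had no match in the 8. The NF-kB motif matched in Dusp22 (7.28% of all) and the heat shock pair GAANNTTC in Dusp16 (6.72%). A match describes the letters in this stretch and is not evidence of binding. Srf, which encodes the serum response factor, had a lean mean of 52.6 ± 3.70 FPKM and an obese mean of 41.8 ± 2.57 FPKM (n = 3 each, error as SD) and did not pass the test (log2 difference −0.32; limma, BH-adjusted p = 0.0548). It passed after median-of-ratios scaling, after quantile normalization, with library weights, with the replicate block and without lean 3. It did not pass under the other alternatives, such as TPM and T cell marker scaling (limma, BH-adjusted p = 0.0765 and 0.219). A part of Srf in the Dusp5 values was not tested.

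The cytoplasmic, ERK-selective phosphatases Dusp6 and Dusp7 went in opposite directions. Dusp6 (gene 67603, chromosome 10, 99263231 to 99267489, GRCm38), or MKP-3, is a feedback target of ERK. It stood at 16.6, 14.2 and 18.7 FPKM in lean 1, 2 and 3 and at 19.2, 21.3 and 26.2 FPKM in obese 1, 2 and 3. The groups did not overlap, but lean 3 and obese 1 lay close together. Obese libraries were higher by 0.40 ± 0.13 (SE) on the log2 scale.

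Dusp7 (gene 235584, chromosome 9, 106368560 to 106375724, GRCm38), its close relative, stood at 34.4, 34.7 and 33.9 FPKM in lean 1, 2 and 3 and at 28.7, 31.8 and 27.1 FPKM in obese 1, 2 and 3. All obese libraries were lower, and the lean libraries were nearly equal, with an SD of 0.395 FPKM. On the log2 scale the difference was −0.23 ± 0.08 (SE). The ratio of Dusp6 to Dusp7 within a library was 0.411 to 0.551 over the lean group and 0.668 to 0.968 over the obese group. With Dusp6 higher and Dusp7 lower in every obese library, these ranges could not overlap. Dusp7 was the more abundant of the pair in every library, by least in obese 3.

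The phosphatases that prefer p38 and JNK are Dusp10 and Dusp16. Dusp10 (gene 63953, chromosome 1, 184034381 to 184075636, GRCm38), or MKP-5, is known in T cells as a brake on JNK. It stood at 23.2, 17.2 and 20.9 FPKM in lean 1, 2 and 3 and at 21.7, 21.8 and 17.2 FPKM in obese 1, 2 and 3. The ranges of the groups nearly coincided. The log2 difference was −0.01 ± 0.13 (SE), and its sign changed with the scaling of the libraries.

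Dusp16 (gene 70686, chromosome 6, 134715468 to 134807063, GRCm38), or MKP-7, stood at 1.73, 2.09 and 2.17 FPKM in lean 1, 2 and 3 and at 2.5, 2.66 and 3.98 FPKM in obese 1, 2 and 3. The groups did not overlap, and obese 3 stood apart from obese 1 and 2. The log2 difference was 0.42 ± 0.15 (SE), and 0.26 without obese 3. Low values are damped on the log2(FPKM + 1) scale, and the ratio of the group means was 1.53.

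Dusp22 (gene 105352, chromosome 13, 30660059 to 30711232, GRCm38), or JKAP, is an atypical member without the MAP kinase binding domain. It is known to dephosphorylate Lck, the kinase that starts T cell receptor signalling. Its FPKM was 3.6, 3.78 and 3.06 in lean 1, 2 and 3 and 4.33, 5.12 and 5.05 in obese 1, 2 and 3. The groups did not overlap. The log2 difference was 0.38 ± 0.11 (SE), and the ratio of the group means was 1.39. Lck itself had a lean mean of 385.6 ± 34.8 FPKM and an obese mean of 383.1 ± 44.5 FPKM (n = 3 each, error as SD), which differed by −0.01 on the log2 scale (limma, BH-adjusted p = 0.953), with a sign that changed under TPM, quantile and T cell marker scaling and without lean 1, lean 2 or obese 3.

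The scaling of the libraries moved the differences of all 9 genes. Median-of-ratios scaling took the median difference over all genes from 0.10 to −0.03. Under it Dusp2 was at 0.37, Dusp5 at −0.59, Dusp6 at 0.26, Dusp7 at −0.38 and Dusp4 at 0.19. With each library divided by its summed T cell markers, an alternative added after seeing the data, the median of all genes was 0.21, Dusp2 was at 0.64, Dusp5 at −0.32 and Dusp7 at −0.11. Quantile normalization took Dusp4 to 0.05, Dusp16 to 0.16 and Dusp22 to 0.14. Dusp2, Dusp4, Dusp6, Dusp16 and Dusp22 stayed above 0 and Dusp5 and Dusp7 below 0 under each of the 5 other scalings, whereas Dusp10 changed sign and Dusp1 was at −0.00109 after median-of-ratios scaling. Dusp2, Dusp5, Dusp6 and Dusp7 kept their sign in all 18 alternatives run, and Dusp4, Dusp16 and Dusp22 in all 17 that tested them. Dusp1 kept its sign in 14 and Dusp10 in 12. For Dusp2 and Dusp5 much of this was built in. Other filters, no intensity trend and the replicate block left their differences unchanged. As their groups did not overlap, another pseudocount or leaving out 1 library could not change the sign. Dusp2 ranged from 0.37 to 0.64 and Dusp5 from −0.59 to −0.32.

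**Figure D4:**
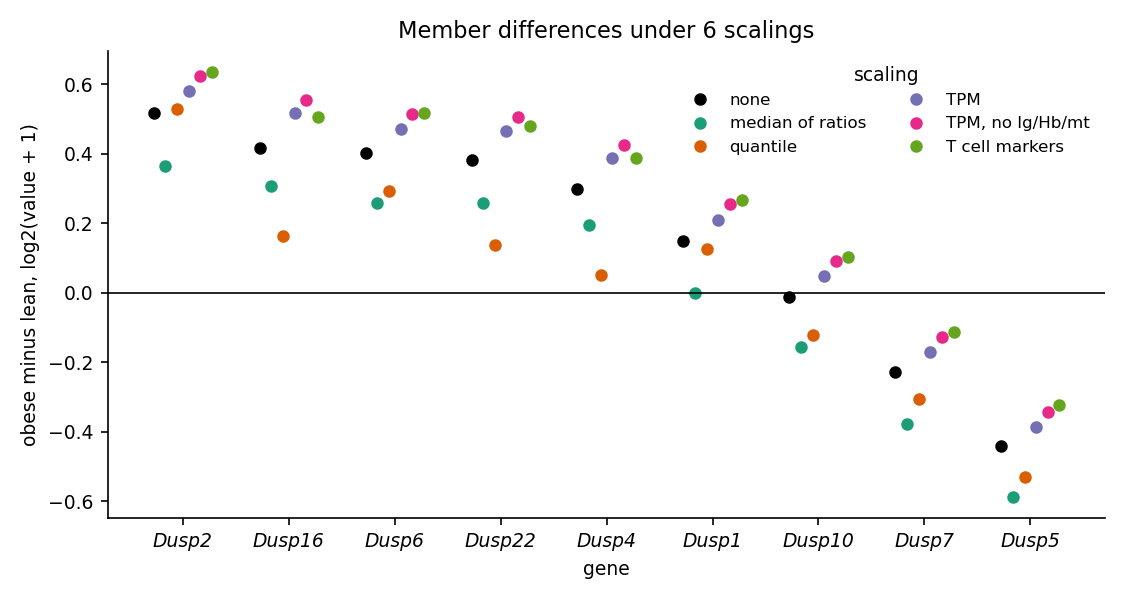
Difference of obese from lean libraries, in log2(value + 1), for each of the 9 genes under 6 scalings of the libraries (colours; "none" is FPKM as deposited). Dusp2 is highest and Dusp5 lowest under each scaling, and quantile normalization moves the scarce Dusp4, Dusp16 and Dusp22 most.

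None of 34 tested MAP kinases and their upstream and downstream kinases passed (limma, BH-adjusted p under 0.05), beside 6.28% of all tested genes, and 3 had an unadjusted p under 0.05, beside 2792 of all 10788. The median log2 difference was 0.10, beside 0.10 for all tested genes. With so few calls over all genes, a count of 0 in a list of this length says nothing particular to the list. Mapk3 encodes a MAP kinase of the ERK type. It had a lean mean of 60.5 ± 7.19 FPKM and an obese mean of 60.8 ± 2.39 FPKM (n = 3 each, error as SD). Its log2 difference was 0.01 (limma, BH-adjusted p = 0.953). Mapk3 and Mapk14 were below 0 after median-of-ratios scaling, and Mapk3 was also below 0 after quantile normalization. Mapk14, the main p38 gene, had a log2 difference of 0.08 (limma, BH-adjusted p = 0.618), and the JNK genes Mapk8 and Mapk9 had 0.33 and 0.18 (limma, BH-adjusted p = 0.126 and 0.294). Map3k8, a kinase that activates the ERK pathway, had 0.38 (limma, BH-adjusted p = 0.142). Without obese 3 it was at 0.24, and after quantile normalization Map3k8, Mapk8 and Mapk9 were at 0.14, 0.07 and 0.02.

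Of 20 genes that link the T cell receptor to Ras, none passed the same test, beside 6.28% of all tested genes, with 2 at an unadjusted p under 0.05, and the median log2 difference was 0.06. Rasgrp4, an activator of Ras found mainly in myeloid and mast cells, was among the latter with 0.29 (limma, BH-adjusted p = 0.134), and at 0.06 after quantile normalization.

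Of 24 other tested brakes on Ras and MAP kinase signalling, 1 rose and none fell, near the 5.77% and 0.519% of all tested genes, and the median log2 difference was 0.13. Rgs1, a regulator of G protein signalling in lymphocytes, rose from a lean mean of 17.2 ± 3.96 FPKM to an obese mean of 28.6 ± 1.85 FPKM (n = 3 each, error as SD), by 0.72 on the log2 scale (limma, BH-adjusted p = 0.0295). It stood at 19.96, 12.7 and 19.0 FPKM in lean 1, 2 and 3 and at 28.9, 26.6 and 30.3 FPKM in obese 1, 2 and 3, and did not pass without obese 1 or without obese 3.

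Of 16 other dual-specificity phosphatases that were tested, 1 rose and none fell, again near the shares of all tested genes (5.77% and 0.519%), with a median log2 difference of 0.14. Dusp3, a small atypical phosphatase also called VHR, stood at 1.70, 2.26 and 2.23 FPKM in lean 1, 2 and 3 and at 3.64, 3.82 and 4.43 FPKM in obese 1, 2 and 3. All obese libraries were higher, by 0.70 ± 0.12 (SE) on the log2 scale (limma, BH-adjusted p = 0.0141), and Dusp3 did not pass without lean 1 (limma, BH-adjusted p = 0.0584) or after quantile normalization, where it was at 0.45. Macrophage marker sums were also higher in each obese library (at least 1550 against at most 759.3 FPKM), and their part in the Dusp3 and Rgs1 values was not tested. A further 9 genes of this list stayed under the filter and were not tested.

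Immediate early genes share with the inducible phosphatases a fast response to stimulation. None of 28 passed (limma, BH-adjusted p under 0.05), beside 6.28% of all tested genes, with 3 at an unadjusted p under 0.05, and 15 were above and 13 below 0, with a median of 0.06. Fos, Jun and Egr1 had log2 differences of 0.36, −0.07 and 0.06 (limma, BH-adjusted p = 0.664, 0.916 and 0.748), and each depended in sign on single libraries: Fos and Egr1 on obese 3, and Jun on lean 1, lean 2 and obese 2. Egr1 was also below 0 after median-of-ratios scaling, and Jun above 0 with T cell marker scaling and with TPM scaling without immunoglobulin, haemoglobin and mitochondrial genes. With library weights Fos and Egr1 were below 0, and Jun was at −0.69 and passed the test. Klf4 had 0.63 (limma, BH-adjusted p = 0.120), and 0.34 without obese 3. Of 14 heat shock genes, which respond to protein stress, 6 fell and none rose, beside 0.519% and 5.77% of all tested genes, with a median log2 difference of −0.997. This list was chosen with earlier results of these data known, so its count and values are a description only. Dnajb1, a co-chaperone, fell from a lean mean of 228.3 ± 21.7 FPKM to an obese mean of 75.4 ± 13.00 FPKM (n = 3 each, error as SD; limma, BH-adjusted p = 4.02e-04), and Hspa1b and Hspb1 fell by 1.79 and 1.15 on the log2 scale (limma, BH-adjusted p = 0.00486 and 0.00616).

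The genes most like Dusp2 and Dusp5 were found by the root mean square difference between log2(FPKM + 1) profiles, each taken minus its own mean over the 6 libraries. The nearest to Dusp2 were Clec4b1, a C-type lectin of myeloid cells, Gm14305 and Mrap, at 0.0536, 0.0551 and 0.0564. All 3 were scarce, with lean means of 1.26, 0.520 and 0.573 FPKM. Gm14305 and Mrap were under 1 FPKM in every lean library and met the filter only through the obese libraries. Their higher obese values were thus built in by the filter. The nearest to Dusp5 were Ube2cbp, Zkscan14 and Scamp3, at 0.0559, 0.0571 and 0.0639. Scamp3, a membrane trafficking protein, had a lean mean of 142.3 ± 6.53 FPKM and an obese mean of 105.7 ± 5.81 FPKM (n = 3 each, error as SD). These distances come from the same 6 libraries as the group difference and are a description only.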

How the data were processed

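The authors deposited 1 table per library with FPKM values of 2 decimals for 22899 genes. The submitters' processing notes name RSEM and Bowtie and the builds mm10 and GRCm38; tool versions, the annotation used and strand settings were not given in the sources read here. FPKM is relative to a library's mapped fragments, so abundant transcripts of other cells lower the values of the rest. Low values were searched for whole-read steps, with a score of 0.188 to 0.329 (maximum 1) against 0.773 to 0.829 for simulated whole reads, so read depth stayed unknown.

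Libraries were grouped by title. Values were taken as log2(FPKM + 1). Genes reaching 1 FPKM in 3 or more libraries, 10788 in all, were fitted with limma 3.58.1 in R 4.3.3 (lmFit, eBayes with an intensity trend, group as the sole term, 2-sided, Benjamini-Hochberg adjustment over all tested genes, threshold 0.05). On simulated data, with 200 of the genes changed in each of 10 runs, 40.0% of changes of 0.5, 88.2% of 1 and 99.0% of 2 on the log2 scale were recovered, and 4.47% of calls were false. The simulated noise was independent between genes, with no shift in scaling or cell content between libraries. These rates therefore need not hold for the real libraries.

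The members and lists were chosen with earlier results of these data known. Named genes were the 9 members, up to 3 called genes with the smallest adjusted p per pathway list or, with no called gene, the 2 of smallest p, 9 kinases and immediate early genes taken whatever their result, and the 3 genes most like the members with the largest rise and fall; 2 of these genes are not reported here. Of the listed symbols, 1 was not in the tables (Gads, listed also as Grap2). Coordinates and promoters are RefSeq's for GRCm38.p6; protein sequences were not analysed here. Alternatives were other pseudocounts, filters, scalings and variance models, library weights, a block on replicate number, and each library left out in turn with the tested genes kept.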

Additional observations from a re-analysis of the deposited data

How the results depend on the processing

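Of 10788 tested genes, 622 were called as higher and 56 as lower. The counts were 316 and 36 with a filter of 5 FPKM, 344 and 24 without a filter, 434 and 173 after median-of-ratios scaling, 322 and 112 after quantile normalization, and 951 higher with TPM scaling without immunoglobulin, haemoglobin and mitochondrial genes. Library weights gave 2507 and 609, and T cell marker scaling, added after seeing the data, gave 27 lower. The share of higher genes among the calls was 91.7%, and 71.5% after median-of-ratios scaling, 74.2% after quantile normalization and 80.5% with library weights. Leaving out 1 library gave 299 to 601 higher and 19 to 97 lower genes. Other filters test another number of genes and fits without a library use fewer samples; for the rest the cause was not tested.

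Among the 9 members, the count of 1 higher became 0 without a filter and after median-of-ratios scaling, 2 with TPM scaling without immunoglobulin, haemoglobin and mitochondrial genes and 4 with library weights. The count of 1 lower became 0 without a filter, with TPM scaling in both forms and with T cell marker scaling. Leaving out 1 library gave 0 to 1 in each direction. The members were chosen on this contrast, so their calls say nothing about stability.

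The 1 higher gene among other dual-specificity phosphatases became 0 with a filter of 5 FPKM, which Dusp3 did not pass, without a filter and after quantile normalization, and 5 with library weights (0 to 1 without single libraries). Library weights called 8 kinases of the MAP kinase list, 2 Ras activation genes, 8 other brakes as higher and 2 as lower, 4 immediate early genes as higher and 5 as lower, and 10 heat shock genes. Without a filter the counts were 1 lower MAP kinase gene, 0 brakes and 3 heat shock genes. Median-of-ratios scaling and quantile normalization each called 1 lower immediate early gene. Without single libraries the brakes gave 0 to 1, and the immediate early genes 0 to 1 in each direction.

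The labels do not say whether the replicate numbers pair the libraries. Deviations from the group means of same-numbered libraries correlated at 0.03, 0.06 and 0.19 across genes. Lean 1 and lean 2 correlated best with another number, and lean 3 with obese 3. With 3 libraries per group, these values cannot decide whether the libraries were paired. With the replicate number as a block, 866 genes were higher and 149 lower, with 3 brakes higher, 1 immediate early gene lower and 10 heat shock genes lower; the member counts stayed at 1 and 1.

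Some small differences changed sign. Dusp1 was at −0.00109 after median-of-ratios scaling and −0.40 with library weights, and −0.15 to 0.40 without single libraries. Dusp10 was at 0.048 with TPM scaling, 0.091 with TPM scaling without immunoglobulin, haemoglobin and mitochondrial genes and 0.10 with T cell marker scaling, and −0.12 to 0.10 without single libraries. After median-of-ratios scaling Mapk3 was at −0.14, Mapk14 at −0.065 and Egr1 at −0.087. After quantile normalization Mapk3 was at −0.033 and Lck at 0.020. Lck was at 0.050 with TPM scaling, 0.094 with TPM scaling without immunoglobulin, haemoglobin and mitochondrial genes and 0.11 with T cell marker scaling, and Jun at 0.036 and 0.051 under the last pair. With library weights Fos was at −0.53, Egr1 at −0.00895 and Jun at −0.69, past the threshold. Without single libraries Mapk3 ranged from −0.071 to 0.10, Lck from −0.085 to 0.087, Fos from −0.27 to 0.79, Jun from −0.44 to 0.27 and Egr1 from −0.060 to 0.13.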

Other observations

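Dusp8, a phosphatase that prefers JNK and p38, stayed under the filter and was not tested. It was listed at 0.02, 0 and 0.06 FPKM in lean 1, 2 and 3 and at 0.56, 0.19 and 0.68 FPKM in obese 1, 2 and 3. Dusp14, an atypical phosphatase known as a brake on T cell receptor signalling, stood at 2.82, 1.93 and 2.24 FPKM in lean and at 3.65, 3.20 and 4.65 FPKM in obese libraries. With a log2 difference of 0.54 it missed the threshold (limma, BH-adjusted p = 0.0730). Both genes were named after their values were seen. Mapk13, of the MAP kinase list, also stayed under the filter but was lower in every obese library. It was listed at 0.40, 0.33 and 0.48 FPKM in lean and at 0.11, 0.12 and 0.16 FPKM in obese libraries. Rasa1, which speeds the return of Ras to its inactive form, had a log2 difference of 0.47 (limma, BH-adjusted p = 0.0735), and Rgs2 had 0.51 (limma, BH-adjusted p = 0.0778); these too were named after their values were seen.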
